A study of Homo sapiens with 4 samples.

Results

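The 10 genes described here encode the 2 transgelins TAGLN and TAGLN2, the 3 calponins CNN1, CNN2 and CNN3, smooth-muscle alpha-actin (ACTA2), and 4 further proteins that build or regulate the contractile actin filament (MYL9, TPM1, TPM2 and CALD1). They are 10 of 25685 genes in the deposited tables, found by matching the RefSeq accession of each of their 29 transcript rows to a gene symbol. The set was selected on the FPKM of TAGLN, which was much higher in the biotin libraries than in the controls, so that difference is given as a description with no test. The other 9 genes were taken by protein family or contractile role, with earlier results of these data known, so the choice was not blind. Of the 10 genes, 6 had an FPKM (a read density scaled by transcript length and library depth) of at least 1 in at least 2 libraries and entered the tests, and 4 stayed below that level.

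The study recovered RNA on streptavidin beads from DU-145, a human prostate cancer cell line, after transfection of miR-26a, a microRNA that lowers the output of mRNAs it pairs with. In the 2 biotin libraries the cells had received 60 nM of a mixture of 3′-biotinylated miR-26a duplexes, with thiouridine as nucleotide 7 in one and as nucleotide 17 in the other. In the 2 control libraries they had received 60 nM of a miR-26a duplex without tag or thiouridine. Cells of both groups were irradiated at 365 nm (2 J/cm2), which crosslinks thiouridine to RNA, so all 4 libraries come from miR-26a-transfected, irradiated cells and the control shows what the beads retained without a tag. Biotin and thiouridine were added together and their effects cannot be told apart. The labels describe 2 biological replicates a group. No library of RNA before the pull-out was analysed here, so the abundance of an RNA in the cells and its recovery on the beads cannot be told apart either. FPKM is scaled to library depth, so a gene described below as rising or falling changed its share of a library. Whether the amount of its RNA on the beads changed was not measured.

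Transgelins and calponins are small actin-binding proteins that share an N-terminal calponin-homology domain and calponin-like repeats. TAGLN (SM22-alpha) and CNN1 are classical early and late markers of smooth muscle, are driven there by serum response factor (SRF) with its myocardin-family coactivators, and are often switched on in fibroblasts and in epithelial cells that take on mesenchymal features. TAGLN2, CNN2 and CNN3 are made in many non-muscle cells. ACTA2, the tropomyosins TPM1 and TPM2, caldesmon (CALD1) and the myosin regulatory light chain MYL9 form or control the actomyosin filament, and several of them are also made outside muscle.

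MicroRNA-26a pairs with its targets mainly through its seed, bases 2 to 8 from the 5′ end. Its mature sequence, from RefSeq (GRCh38.p14), is shown here with the seed in capitals, since it is the bait of the experiment.
hsa-miR-26a-5p: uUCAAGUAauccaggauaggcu
The complement of bases 2 to 8 is TACTTGA, that of bases 2 to 7 is ACTTGA, and ACTTGAA is the latter followed by A. These 3 motifs were searched on the sense strand of every coding transcript of the 10 genes in GENCODE 29 (GRCh38), ACTTGA being contained in both longer motifs. No ACTTGA occurred in any of the 7 coding transcripts of TAGLN (375 to 2166 nt long) or the 4 of TAGLN2 (709 to 1604 nt). None occurred in the coding transcripts of CNN1 (9), CNN2 (11), CNN3 (4), ACTA2 (3) or MYL9 (2) either. Of 9192 tested genes with a coding transcript there, 61.1% held ACTTGA in at least 1 of them, 34.9% held ACTTGAA and 22.9% held TACTTGA. The absence says only that these letters are not in these transcripts. For the TAGLN2 row with signal the linked GENCODE transcript was 709 nt long against a deposited 1379 nt. For the main TAGLN row it was 928 against 1160 nt, for CNN2 2179 against 2458 nt and for ACTA2 1349 against 1758 nt. Some bases of these rows may therefore not have been searched.

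Matches were present in the 3 remaining genes. Both tropomyosin genes held ACTTGAA within a similar stretch of sequence, in 12 of 25 coding transcripts of TPM1 and in 5 of 8 of TPM2, and CALD1 held TACTTGA in 1 of 13 (and ACTTGAA, elsewhere in its 5′ UTR, in 1). ACTTGA, the shortest motif, was in 15 of 25 coding transcripts of TPM1, 5 of 8 of TPM2 and 11 of 13 of CALD1. The windows are shown with the motif in capitals, because they are among the longest seed matches in the gene set.
TPM1, chr15:63061747-63061773, plus strand: gtgacgaacaACTTGAAgtcactggag
TPM2, chr9:35684747-35684773, minus strand: gttaccaacaACTTGAAatccctggag
CALD1, chr7:134866931-134866957, plus strand: aattctggaaTACTTGActccatggca
The TPM2 window is coding in each of the 5 transcripts, the TPM1 window is coding or 3′ UTR depending on the transcript, and the CALD1 window lies in the 5′ UTR. The GENCODE transcripts linked to the 2 TPM1 rows with signal (NM_001018006 and NM_001018020) held 0 copies of ACTTGA, but the latter link is 933 nt long against a deposited 1788 nt, so part of that row was not searched. TPM2 and CALD1 stayed below 1 FPKM in all 4 libraries. The CALD1 rows with signal, NM_033139 and NM_033140, start at 134891400, downstream of the window shown. Their linked transcripts held 2 and 1 copies of ACTTGA.

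TAGLN, which crosslinks and stabilises actin filaments, measured 5.74 and 7.61 FPKM in control replicates 1 and 2 and 48.7 and 40.5 FPKM in biotin replicates 1 and 2. Both biotin libraries lay well above both controls. The group means were 6.67 ± 1.32 and 44.6 ± 5.83 FPKM (SD, n = 2), a ratio of 6.68. On the log2(FPKM + 1) scale, on which all log2 fold changes below are given as biotin minus control, the difference was 2.58 ± 0.21 (SE). These values chose the gene set and support nothing further. In bulk RNA, more cells making a transcript and more of it per cell cannot be told apart. From coverage and length, the TAGLN values rest on about 113 and 158 reads in the controls and about 997 and 1115 in the biotin libraries. TAGLN ranked 76 among 9939 tested genes by log2 fold change and moved from rank 3448 to rank 559 by level.

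TAGLN2, the broadly expressed transgelin, was at 91.2 and 105 FPKM in the controls and at 816 and 597 FPKM in the biotin libraries. Again the groups were far apart, and biotin replicate 1 was the higher of its pair. It rose from 98.1 ± 9.75 to 706.4 ± 155.3 FPKM (SD, n = 2), a ratio of 7.20 and a log2 fold change of 2.82 ± 0.23 (limma adjusted p = 0.0012 over all tested genes). About 2017 and 2580 reads in the controls against 19773 and 19447 reads in the biotin libraries stood behind these values. By mean FPKM it was the gene of rank 223 in the controls and of rank 13 in the biotin libraries. The call was kept in each of the 4 fits that left out a library, with adjusted p between 0.00713 and 0.0442.

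The ratio of TAGLN2 to TAGLN, in FPKM, was 15.9 and 13.8 in the controls against 16.8 and 14.7 in the biotin libraries. The ratios of the groups overlapped, which is given as a description, since TAGLN chose the gene set. Within replicate number 1 TAGLN was 8.49-fold and TAGLN2 8.95-fold higher in the biotin library, and within number 2 the ratios were 5.32 and 5.68. The labels do not say whether same-numbered libraries were made together, so this pairing may be arbitrary. The third transgelin, TAGLN3, which is mainly neuronal, was listed at 0 in 3 libraries and at 0.0762 FPKM in biotin replicate 1.

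**Figure D1:**
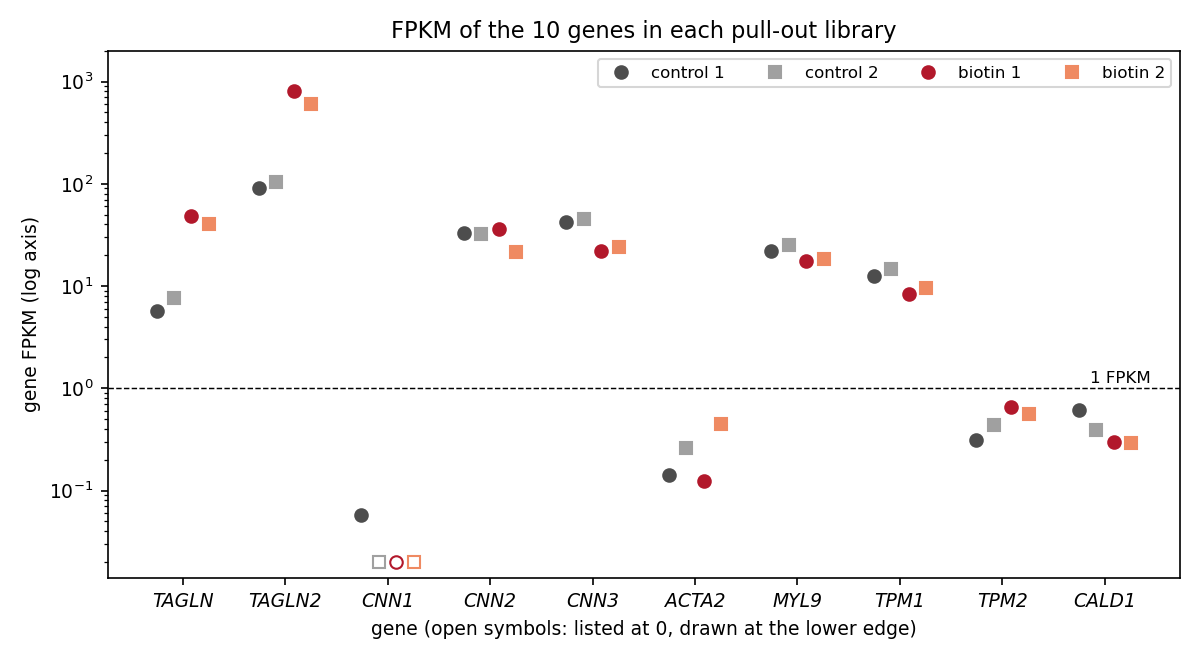
Gene FPKM (log axis) of the 10 genes in each of the 4 libraries, with control replicates in grey, biotin replicates in red and orange, and values listed at 0 as open symbols at the lower edge. TAGLN and TAGLN2 are the genes whose biotin values lie far above the controls, and CNN1, ACTA2, TPM2 and CALD1 lie below the dashed line at 1 FPKM.

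Neither of the 2 expressed calponins rose. CNN2, a calponin of non-muscle cells, was at 32.9 and 32.1 FPKM in the controls against 36.5 and 21.4 FPKM in the biotin libraries, which enclosed the control values on both sides (log2 fold change -0.21 ± 0.27, limma adjusted p = 0.605). CNN3, the acidic calponin, was at 42.3 and 45.7 FPKM in the controls against 21.8 and 24.1 FPKM in the biotin libraries, with no overlap. It fell from 44.0 ± 2.46 to 22.9 ± 1.64 FPKM (SD, n = 2), a log2 fold change of -0.91 ± 0.18 (limma adjusted p = 0.0190). That call was lost in each of the 4 fits without a library, where the adjusted p lay between 0.0667 and 0.108. CNN1, the smooth-muscle calponin, was listed at 0.0571 FPKM in control replicate 1, about 1.44 reads, and at 0 in the other 3 libraries. For its transcript 3 reads would give 0.0800 to 0.118 FPKM, so CNN1 was not detectable at this depth.

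TAGLN2 stood at 2.77 and 3.28 times the FPKM of CNN2 in the controls and at 22.3 and 27.9 times in the biotin libraries. Against CNN3 the ratios were 2.16 and 2.30 in the controls against 37.5 and 24.8 in the biotin libraries. Neither ratio overlapped between the groups.

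Among the filament genes, MYL9 and TPM1 were expressed and neither passed the test. MYL9, a regulatory light chain of myosin II, was at 21.9 and 25.1 FPKM in the controls against 17.4 and 18.5 FPKM in the biotin libraries, lower without overlap but by only -0.37 ± 0.18 on the log2 scale (limma adjusted p = 0.175). TPM1, a tropomyosin that lies along the actin filament, was at 12.4 and 14.7 FPKM against 8.34 and 9.55 FPKM, also without overlap (-0.55 ± 0.17, limma adjusted p = 0.0680). TPM1 passed in 3 of 15 alternative fits and did not in the other 12. With upper-quartile scaling it passed at -0.63 (limma adjusted p = 0.0387) and with quantile scaling at -0.62 (limma adjusted p = 0.0393). Over all tested genes these scalings called 1386 and 1211 genes lower, against 926 in the main fit. Among genes averaging at least 5 FPKM it passed at -0.55 (limma adjusted p = 0.0453). With single transcript rows it was at -0.36 (limma adjusted p = 0.260).

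Smooth-muscle actin itself was close to the limit of detection. ACTA2 measured 0.142 and 0.259 FPKM in the controls against 0.125 and 0.451 FPKM in the biotin libraries, which rests on about 3.14 to 18.7 reads a library. TPM2 was at 0.312 and 0.436 FPKM in the controls against 0.655 and 0.558 FPKM in the biotin libraries, and CALD1, which restrains actomyosin, at 0.617 and 0.391 against 0.297 and 0.294 FPKM. The TPM2 and CALD1 groups did not overlap, in opposite directions, on 6.05 to 16.1 and 21.9 to 41.5 estimated reads a library. These 4 genes were not tested. The ACTA2 protein is nearly identical to those of the abundant ACTB and ACTG1. Whether any of its few reads came from those genes was not tested.

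In all, 1 of the 5 tested relatives of TAGLN was called higher (TAGLN2) and 1 lower (CNN3), while 3 did not pass. Over all 9939 tested genes limma called 22.5%, with 13.2% higher and 9.32% lower. The share of increases among the calls, 58.5%, was 46.9% with upper-quartile, 51.2% with quantile and 66.2% with median-of-ratios scaling, and reached 87.2% without control replicate 2. By ranges alone, both biotin values lay above both controls in 1 of the 5 relatives and below them in 3 (CNN3, MYL9 and TPM1), against 29.4% and 37.7% of all tested genes. The median log2 fold change was -0.37 for the 5 relatives and -0.06 for all tested genes, whose 5th and 95th percentiles were -0.81 and 1.30.

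**Figure D2:**
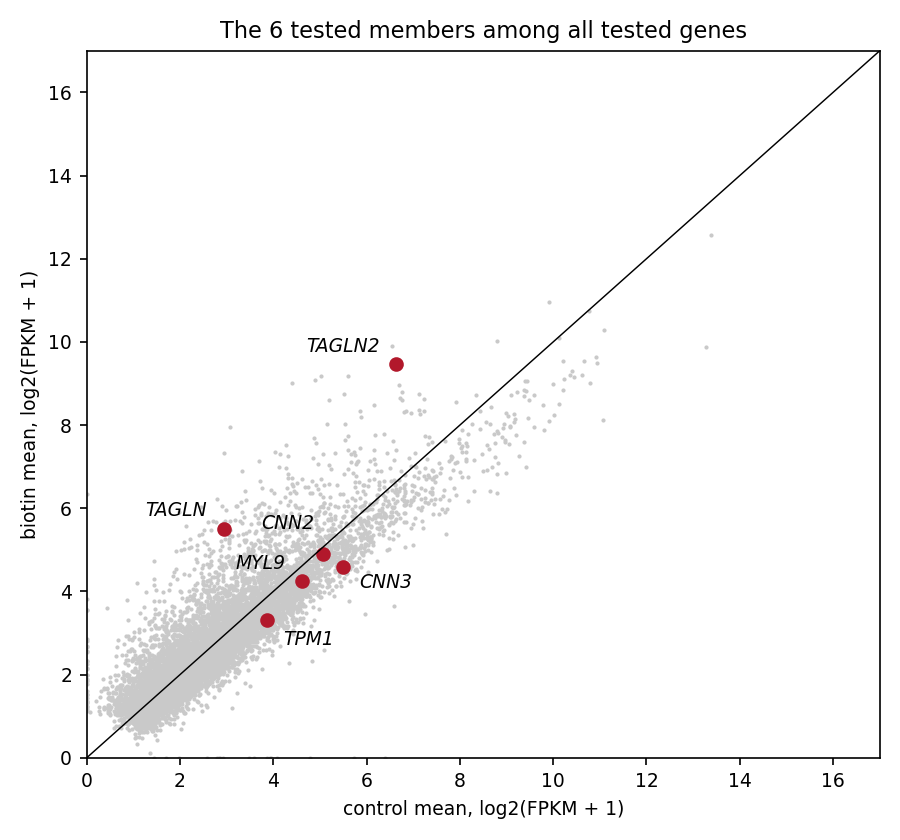
Log2(mean FPKM + 1) of the biotin libraries against that of the control libraries for 9939 tested genes (grey), with the 6 tested members in red and the line of equal levels in black. TAGLN and TAGLN2 lie above the line at the upper edge of the cloud, while CNN2, CNN3, MYL9 and TPM1 lie on or below it.

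At the level of single transcripts, the signal of each gene came from few rows, and 11 of the 29 rows were listed at 0 in all 4 libraries. TAGLN2 was assigned to NM_001277223 (chromosome 1, 159918107 to 159924551 in hg38) in every library, with NM_001277224 and NM_003564 at 0. TAGLN was assigned to NM_003186 (chromosome 11, 117199324 to 117204792) except in control replicate 1, where NM_001001522 held 15.4% of the gene's FPKM. NM_003186 alone was at 4.86 and 7.61 FPKM in the controls. CNN2 was assigned to NM_004368 alone (chromosome 19, 1026299 to 1039065). Of the other tested members, CNN3 lies on chromosome 1 (94896949 to 94927223), MYL9 on chromosome 20 (36541484 to 36549823) and TPM1 on chromosome 15 (63042639 to 63071914).

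For CNN3 the division among rows differed between libraries of the same group. NM_001839 held 76.2% and 89.5% of its FPKM in the controls, 100% in biotin replicate 1 and 19.0% in biotin replicate 2. In that last library NM_001286056 held 49.0% and NM_001286055 32.0%. The gene sums of the 2 biotin libraries were close (21.8 and 24.1 FPKM), and NM_001839 taken alone did not pass (log2 fold change -1.73, limma adjusted p = 0.275). TPM1 was divided between NM_001018006 and NM_001018020, with 55.1%, 55.0%, 69.8% and 55.5% in the latter over control 1, control 2, biotin 1 and biotin 2. MYL9 was in NM_006097, save for 15.1% in NM_181526 in biotin replicate 2. The few ACTA2 reads were assigned to NM_001613 in both controls and to NM_001141945 in both biotin libraries. Rows of a gene overlap almost wholly, and how far the division reflects the reads was not tested.

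**Figure D3:**
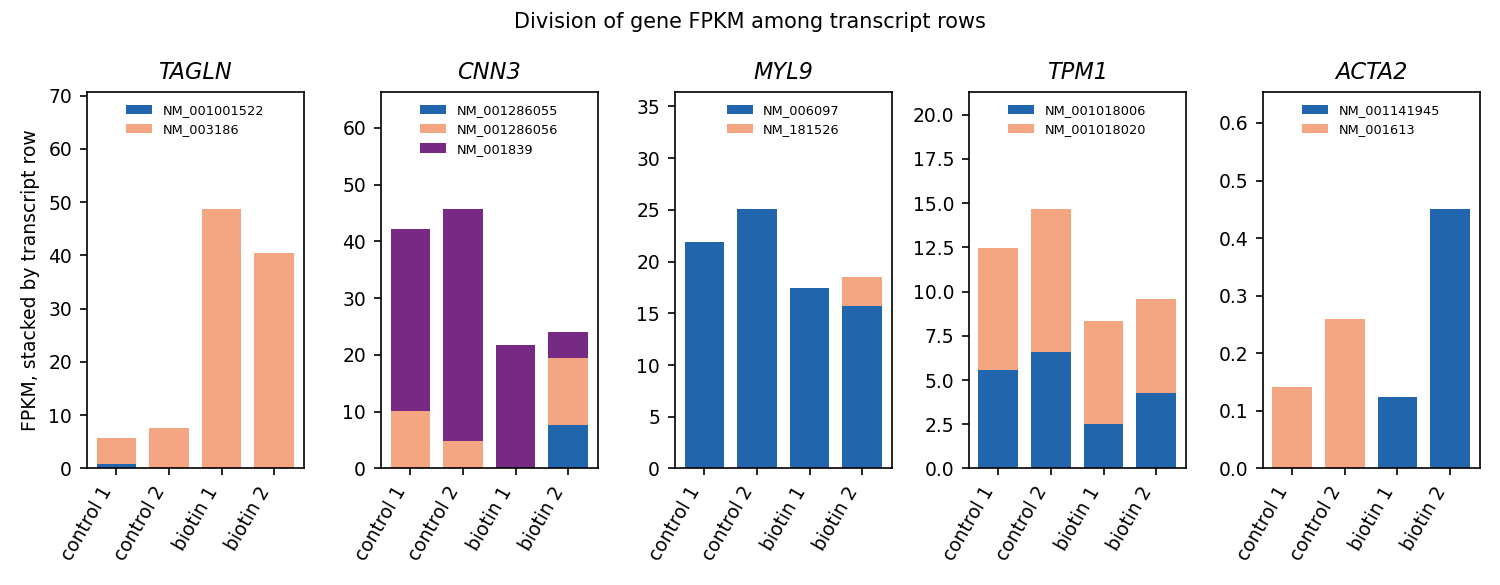
FPKM stacked by transcript row for TAGLN, CNN3, MYL9, TPM1 and ACTA2 in each library, each panel with its own axis from 0. The TAGLN bars are one row almost throughout, whereas the 3 CNN3 rows change places between biotin replicates 1 and 2 at similar total height.

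No other row with signal overlapped either transgelin gene. None at all overlapped TAGLN2, and a single locus, LOC100652768, overlapped TAGLN over 2591 bp and was listed at 0 in all 4 libraries. DLGAP4-AS1, antisense to MYL9, was also at 0. FAS, the death receptor gene that starts head to head with ACTA2 and overlaps it over 860 bp on the opposite strand, was at 1.76 and 1.79 FPKM in the controls against 0.894 and 0.927 FPKM in the biotin libraries and fell by 0.54 on the log2 scale (limma adjusted p = 0.0380). The strand setting of the authors' counting is not given in the sources used here, so reads of ACTA2 and FAS cannot be told apart where they overlap.

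The closest relatives of the 10 genes were compared next, as 12 paralogs. Of 8 tested paralogs 0 were called higher in limma and 5 (62.5%) lower, against 13.2% and 9.32% of all tested genes. Their median log2 fold change was -0.68. Among all genes averaging at least 5 FPKM, fitted alone, 805 of 4549 were called lower, a larger share than over all tested genes. Of the 4 myosin light chain genes in the list, MYL12A, MYL12B and MYL6 were called lower and MYL6B was not. MYL12A, a non-muscle regulatory light chain close to MYL9, was at 65.8 and 73.3 FPKM in the controls against 36.3 and 35.3 FPKM in the biotin libraries (-0.94 ± 0.18, limma adjusted p = 0.0188). MYL6, the essential light chain, was at 113 and 109 against 58.1 and 58.8 FPKM (-0.92 ± 0.18), and MYL12B at 120 and 138 against 70.7 and 81.5 FPKM (-0.75 ± 0.20, limma adjusted p = 0.0437).

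Both tropomyosin genes in that list were lower as well. TPM4 was at 7.03 and 8.48 FPKM against 4.79 and 4.52 FPKM (-0.63 ± 0.16, limma adjusted p = 0.0383), and TPM3 at 25.5 and 30.4 against 18.1 and 16.4 FPKM (-0.66 ± 0.19, limma adjusted p = 0.0497). Each of these 5 calls was lost in all 4 fits without a library. The cytoplasmic actins did not pass: ACTB was at 472 and 620 FPKM in the controls against 511 and 336 FPKM in the biotin libraries, and ACTG1 at 359 and 457 against 375 and 319 FPKM, with overlapping groups. MYL6B was at 17.4 and 14.1 against 7.77 and 11.2 FPKM (limma adjusted p = 0.0693), with a wider gap between its biotin replicates. The muscle actins ACTA1, ACTC1 and ACTG2 and the transgelin TAGLN3 stayed below 1 FPKM.

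**Figure D4:**
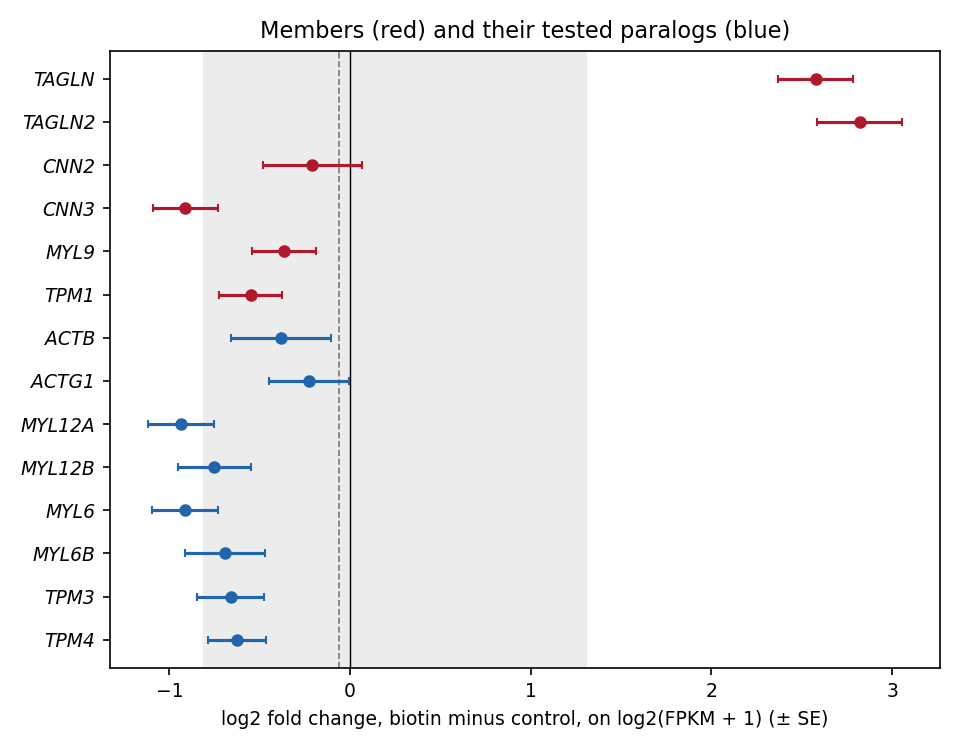
Log2 fold change (biotin minus control, on log2(FPKM + 1), ± SE) of the 6 tested members in red and the 8 tested paralogs in blue. The grey band spans the 5th to 95th percentile of all tested genes (-0.81 to 1.30) and the dashed line is their median. The 2 transgelins lie beyond the upper end of the band at 2.58 and 2.82, and the other 12 genes lie below 0.

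Genes controlled by SRF and its MRTF coactivators, or controlling them, formed a second list of 34 genes, since TAGLN is a textbook SRF target. Of 29 tested genes 5 (17.2%) were called higher and 2 (6.90%) lower, against 13.2% and 9.32% of all tested genes. The median log2 fold change was -0.07, close to that of all tested genes. FLNA, which crosslinks actin filaments, rose from 54.8 ± 4.80 to 138.1 ± 27.3 FPKM (1.31 ± 0.22, limma adjusted p = 0.0123). PLAUR, the urokinase receptor, was at 12.9 and 13.7 FPKM in the controls against 42.9 and 26.4 FPKM in the biotin libraries (1.28 ± 0.26, limma adjusted p = 0.0201), with more spread in the biotin pair. TUFT1 rose by 0.96 ± 0.20 and ACTR3, a subunit of the Arp2/3 actin nucleator, by 0.72 ± 0.16, while the immediate early gene FOS fell by 0.82. The smooth-muscle coactivator MYOCD was listed at 0 in all 4 libraries, and the myocardin target LMOD1 was too.

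A broader list held 58 genes of the actin filament, focal adhesions and actomyosin. Of 54 tested genes 6 (11.1%) were called higher and 15 (27.8%) lower, against 13.2% and 9.32% of all tested genes. The median log2 fold change of the list was -0.38. Decreases were a larger share of well-expressed genes. Among genes averaging at least 5 FPKM, fitted alone, 805 of all 4549 were called lower. In that fit 20 of 62 were called lower over the paralog, SRF and broader lists together. MSN, which ties actin filaments to the plasma membrane, was at 28.1 and 27.0 FPKM in the controls against 130.5 and 70.1 FPKM in the biotin libraries (1.76 ± 0.31, limma adjusted p = 0.0138). Its close relative RDX, with the same role, fell from 8.93 ± 0.33 to 4.06 ± 0.20 FPKM (-0.97 ± 0.15, limma adjusted p = 0.0083). PXN, a scaffold of focal adhesions, rose from 32.8 ± 0.53 to 68.9 ± 0.98 FPKM (1.05 ± 0.18).

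Among the decreases, TMSB4X, which sequesters actin monomers, fell from 15.9 ± 0.76 to 6.10 ± 0.19 FPKM (-1.25 ± 0.16, limma adjusted p = 0.0046), and the filament-severing protein CFL1 from 281.2 ± 15.5 to 140.3 ± 0.56 FPKM (limma adjusted p = 0.0174). Of the Arp2/3 genes, singled out after their values were seen, ARPC2 (-0.72), ARPC3 (-0.83), ARPC5 (-0.86) and ACTR2 (-0.61) fell and ACTR3 rose. ARPC1B (-0.48), ARPC1A (-0.55), ARPC5L (-0.39) and ARPC4 (0.31), the last 3 from outside the list, did not pass. In the 3 lists together, 12 of 89 genes stood in more than 1 list. Among their 76 tested genes, 9 (11.8%) were called higher and 16 (21.1%) lower, against 13.2% and 9.32% of all tested genes. None of these 25 calls passed in all 4 fits without a library; MSN and TMSB4X each passed in 2 of the 4.

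**Figure D5:**
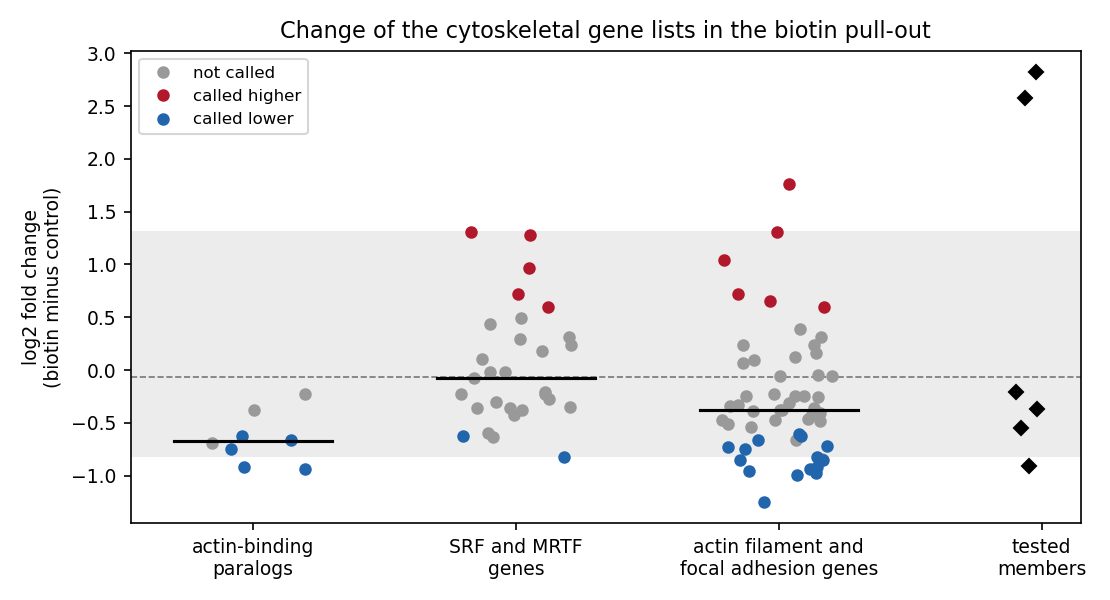
Log2 fold change (biotin minus control) of the tested genes of the 3 cytoskeletal lists, with genes called higher in red, called lower in blue and the rest in grey, list medians as black bars, and the 6 tested members as black diamonds. The band and dashed line are the 5th to 95th percentile and median of all tested genes. No gene of the lists reaches the 2 transgelins, and the highest is MSN at 1.76.

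By the pattern over the 4 libraries, the tested genes most like TAGLN were SCAMP2, ICMT, HYAL3, MED6 and TMTC3. Likeness was the Euclidean distance between centred log2(FPKM + 1) values, which ran from 0.133 for SCAMP2, a protein of recycling secretory vesicles, to 0.181 for TMTC3. SCAMP2 was at 38.2 and 52.4 FPKM in the controls against 271.9 and 249.0 FPKM in the biotin libraries. ICMT, which methylates prenylated proteins, was at 16.7 and 21.1 against 113.2 and 109.8 FPKM. MED6, a subunit of the Mediator complex, came closest in level, at 6.23 and 8.54 against 48.6 and 38.4 FPKM. Among the 10 genes TAGLN2 was nearest, at 0.299, with 20 tested genes closer to TAGLN than it was. CNN2, MYL9, TPM1 and CNN3 were at 2.82 to 3.50, with 6289 to 9562 genes closer. The ranking rests on 4 libraries and 1 contrast, so it describes a shared difference between the groups.

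Cell-type markers were read beside these values. DU-145 cells showed their epithelial keratins in every library, KRT18 at 45.1 to 65.0 FPKM and KRT8 at 20.7 to 29.2 FPKM, while the basal keratin KRT5 was listed at 0. Of 13 tested epithelial markers 2 were called higher, CD44 (2.12) and EGFR (1.03), and S100A6 was called lower (-1.14). These shares were 15.4% and 7.69%, against 13.2% and 9.32% of all tested genes. CD44 passed in all 4 fits without a library, EGFR in 1 and S100A6 in 0. Their sum was 1989 and 1818 FPKM in the controls against 1127 and 960.2 FPKM in the biotin libraries, mostly from S100A6, and any part of this in the members' values was not tested. Of 10 markers of differentiated smooth muscle 8 stayed below 1 FPKM in all libraries and 5 were at 0 throughout, MYH11 and MYOCD among them. Their summed level was 5.46 and 5.53 FPKM in the controls against 5.73 and 5.21 FPKM in the biotin libraries, nearly all from SMTN and SYNM, and neither of these passed. Of 14 fibroblast and matrix markers 13 stayed below 1 FPKM and 5 were at 0, DCN and LUM among them. VIM, which DU-145 cells make themselves, carried almost all of that list's sum of 173.8 and 272.3 FPKM in the controls against 124.4 and 166.5 FPKM in the biotin libraries, lower without overlap, and its part in the members' values was not tested. Endothelial markers all stayed below 1 FPKM. Of 10 blood markers 7 stayed below 1 FPKM, and of the 3 tested CD14 was called higher and CD74 lower, which passed in 1 and 0 of the 4 fits without a library. Their sums in the biotin libraries, 9.06 and 8.04 FPKM, lay between those of the controls.

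All 4 libraries held an estimated 16030000 to 23640000 mapped reads, and biotin replicate 2 was the deepest. Replicates of a group differed by a median of 0.19 (control) and 0.18 (biotin) on the log2 scale over all tested genes. Among the members the widest gaps were in the biotin pair, 0.74 for CNN2 and 0.45 for TAGLN2, both with replicate 1 higher. With 2 libraries a group the calls lean on the spread that limma pools over genes, and an exact permutation test could not go below p = 0.333.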

How the data were processed

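Single reads of 50 bases were sequenced from TruSeq Stranded Total RNA libraries, per the labels' protocols. The submitters' processing notes name build hg38 and 5 tools: TopHat2 (2.0.9), Cufflinks (2.1.1), Cuffdiff, FastQC (0.10.1) and cutadapt. What each was run with, strand mode and annotation included, is not given in the sources used here. The authors deposited a Cufflinks table of 53209 transcript rows per library, and per the file headers expression is in FPKM. The deposited coverage served only to estimate reads, from its ratio to FPKM and from transcript length. No raw counts were used, so no count model was run and the reads are estimates.

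RefSeq accessions (98.7% of 46699) were named through the RefSeq gene table (GRCh38.p14), then GENCODE 29, and FPKM was summed per gene. All 29 rows of the members had status OK in all 4 libraries. The 22 genes with a failed or excess-data row, and short structured RNAs, were left out. Biotin and control were compared with limma 3.58.1 (R 4.3.3, variance trend, two-sided) on log2(FPKM + 1), which understates changes of low genes, at a Benjamini-Hochberg adjusted p of 0.05 over the 9939 genes reaching 1 FPKM in 2 or more libraries. The procedure was tested on simulated data. Alternatives were other pseudocounts, filters, scalings and variance models, short RNA genes kept, single transcript rows, the replicate number as a block, and each library left out.

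Members and lists were chosen with earlier results of these data known. Named were all 10 members and 12 paralogs, overlapping genes, up to 6 called genes per list by size of change, and the 5 genes nearest to TAGLN, and not every gene so named is described. The p-values measure the spread between these libraries only.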

Additional observations from a re-analysis of the deposited data

How the results depend on the processing

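TAGLN2 was called higher in all 15 alternatives (log2 fold change 2.60 to 3.30, limma adjusted p 0.00039 to 0.0442), and TAGLN lay between 2.09, with a pseudocount of 5, and 2.75. MYL9 passed in none of the 15. CNN2 ranged from -0.58 without biotin replicate 1 to 0.16, a changed sign, without biotin replicate 2 (limma adjusted p = 0.159 and 0.648). CNN3 lost its call with single transcript rows and with any library left out, and TPM1 gained one in 3 alternatives. The count of relatives called lower, 1 in the report, was 2 with quantile scaling, upper-quartile scaling or a mean FPKM of at least 5, 0 with single transcript rows, and 0 to 0 with a library left out. Of 76 tested pathway genes, 9 (11.8%) were called higher and 16 (21.1%) lower in the report, against 13.2% and 9.32% of all tested genes. Without a filter on low values those counts were 2 and 6 of 86, against 653 and 230 of all 16112 tested. With single transcript rows they were 0 and 1 of 75, against 336 and 142 of all 12005 rows. With short RNA genes kept they were 7 and 10 of 76, against 1111 and 656 of all 10225. The main fit called 1307 and 926 of all 9939, so these settings gave fewer calls over all genes and not only among the pathway genes. Leaving out control replicate 1 or 2 gave 0 calls in either direction for these genes, and over all tested genes 189 and 320 higher and 32 and 47 lower. With the replicate number as a block 7 pathway genes were called higher and 7 lower, and the relatives' calls were as reported. Over all genes the block gave 1078 higher and 534 lower. The labels do not say whether same-numbered libraries were made together. Deviations of same-numbered libraries correlated at 0.0024 over genes, which does not settle it. The causes of these differences were not tested. Depth limits CNN1, ACTA2, TPM2 and CALD1, which rest on fewer than 42 estimated reads a library.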
